A study of Mus musculus with 10 samples.

Results

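The genes described here are 9 genes for voltage-gated potassium channels that repolarize the heart muscle cell, chosen by name from the 23337 genes of a deposited table of right atrial RNA-seq counts. They are Kcnd2, Kcnd3, Kcna4 and Kcnip2 of the transient outward current, Kcna5 of the ultrarapid current, Kcnh2, Kcnq1 and Kcne1 of the delayed rectifier currents, and Kcnv2, a silent subunit. The rule is a list of names. Voltage-gated potassium channels open when the membrane depolarizes and let potassium leave the cell, which ends the action potential. Each channel is built from pore-forming subunits around a shared selectivity filter, and auxiliary or silent subunits change how fast it opens and closes or how much of it reaches the membrane. In atrial muscle such currents help set the length of the action potential and of the refractory period. How much each contributes in mouse atrium was not measured here.

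Right atria of 10 mice were sequenced, 1 library per mouse, with 4 mice labelled control and 6 labelled Tbx5 mutant. Tbx5 is a T-box transcription factor of the heart with a known role in atrial rhythm. The mutant mice carried floxed Tbx5 alleles and a tamoxifen-inducible Cre recombinase under the R26 promoter, which is active in all tissues (Tbx5 fl/fl;R26CreERt2), so that excision was not limited to heart muscle. Control mice carried the inducible Cre alone (R26CreERt2) in the study's methods, and their label says only control. Tamoxifen was given by intraperitoneal injection at 0.167 mg per day for 3 days to remove exon 3, and the tissue was taken 1 week later. The strain is given as mixed, and the age as 8 to 10 weeks in one label and 6 to 8 weeks in another. A difference in bulk tissue can come from fewer cells of a type or from less RNA per cell, and these cannot be told apart here.

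The targeted gene was read at a higher level in the mice labelled Tbx5 mutant. Tbx5 was at 205 ± 17.8 CPM (CPM, the library's counts scaled to a common total after TMM scaling, as mean ± SD, n = 4) in mice labelled control and 394 ± 83.3 CPM (n = 6) in mice labelled Tbx5 mutant, and no library of one group reached the range of the other. The count covers the whole gene, whose longest transcript has 9 exons, while only exon 3 is excised, so transcripts that lack exon 3 are still counted and the level does not check the labels. Every direction below is given between labels. The sex label of the control libraries went against their sex-linked genes: the controls labelled male (M1 and M2) had 10149 and 7850 reads of Xist, the X-inactivation RNA, and no read of Ddx3y, a Y-linked gene, while those labelled female (F1 and F2) had 5 and 14 reads of Xist and 1319 and 1124 of Ddx3y. The 6 mutant libraries matched their sex labels. Library totals ran from 5703775 to 7095141 counts, and in mutant M3 the ribosomal precursor Rn45s took 38.9% of them, against 0.268% to 1.49% in the others. The 5 atrial muscle markers (Nppa, Myl4, Sln, Bmp10 and Myl7) were at 643 CPM or more in every library, the lowest being Sln.

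The pore-forming members share the selectivity filter, and the bases that encode it show how the family divides. It was searched in the annotated coding sequence of each gene's longest protein-coding GENCODE M21 transcript as threonine or serine, then valine, isoleucine or leucine, glycine, tyrosine or phenylalanine, and glycine. Leucine was added after a first search without it had missed Kcnd2 and Kcnd3. The pattern lay once in 7 of the 9 members and in 0.722% of 21877 coding genes. The 2 members without it, Kcne1 and Kcnip2, are auxiliary subunits. In the 45-base stretches of 6 members that follow, 5′ to 3′ on the coding strand, capitals mark the codons of the filter.
Kcnd2: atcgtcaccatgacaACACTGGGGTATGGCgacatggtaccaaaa
Kcna4: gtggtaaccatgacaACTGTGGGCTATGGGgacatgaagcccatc
Kcna5: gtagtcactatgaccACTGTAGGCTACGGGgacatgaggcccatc
Kcnv2: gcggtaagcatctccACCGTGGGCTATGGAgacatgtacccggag
Kcnq1: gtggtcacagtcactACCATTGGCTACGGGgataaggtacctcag
Kcnh2: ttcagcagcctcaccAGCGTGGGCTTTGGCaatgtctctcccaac
Kcnh2 is the member with phenylalanine as the fourth filter residue, at residues 626 to 630 of 1162, where the other 6 have tyrosine. In Kcnq1 the filter lies at residues 311 to 315 of 668. Kcnv2, which forms no channel by itself, carries the same filter pattern at residues 474 to 478 of 562.

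Except for a pair on chromosome 6 and a pair on chromosome 19, each member lies on a chromosome of its own. In GENCODE M21 on mouse build GRCm38, Kcnh2 (ENSMUSG00000038319.14) runs from 24319589 to 24351604 on the reverse strand of chromosome 5, with 15 exons in its longest transcript. Kcne1 (ENSMUSG00000039639.7) lies on the reverse strand of chromosome 16 from 92345982 to 92359468. Chromosome 19 holds Kcnv2 (ENSMUSG00000047298.3) at 27322588 to 27337179 on its forward strand and Kcnip2 (ENSMUSG00000025221.15) at 45791839 to 45816061 on its reverse strand. Kcnd2 (ENSMUSG00000060882.5, 21215503 to 21729805, forward) and Kcna5 (ENSMUSG00000045534.4, 126532551 to 126535412, reverse) share chromosome 6. Kcnd3 (ENSMUSG00000040896.16) runs over 105452330 to 105674002 of chromosome 3, and Kcna4 (ENSMUSG00000042604.5) over 107290639 to 107298502 of chromosome 2, both forward. Kcnq1 (ENSMUSG00000009545.14) spans 143106362 to 143427042 on the forward strand of chromosome 7, and the gene of the antisense RNA Kcnq1ot1 lies within it (143203458 to 143296549, reverse).

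All 9 members passed the expression filter, Kcne1 by its mutant libraries, and were tested with edgeR among 13084 genes. The call of a gene required a p under 0.05 after Benjamini-Hochberg adjustment over all genes tested, a change of over 1.5-fold, and a mean of the authors' normalized signal over 1 in controls. Kcnh2 and Kcnv2 were lower and Kcne1 was higher in mice labelled Tbx5 mutant, and the other 6 members were not called. The calls were 2 of 9 members lower, beside 7.16% of all genes tested, and 1 of 9 higher, beside 8.50%. The same 3 members had no overlap between groups, where 11.0% of all genes had every mutant library below every control and 11.7% had every mutant library above. The median log2 fold change was -0.11 over the members and -0.005 over all genes tested, with values from -2.28 for Kcnv2 to 3.16 for Kcne1.

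**Figure D1:**
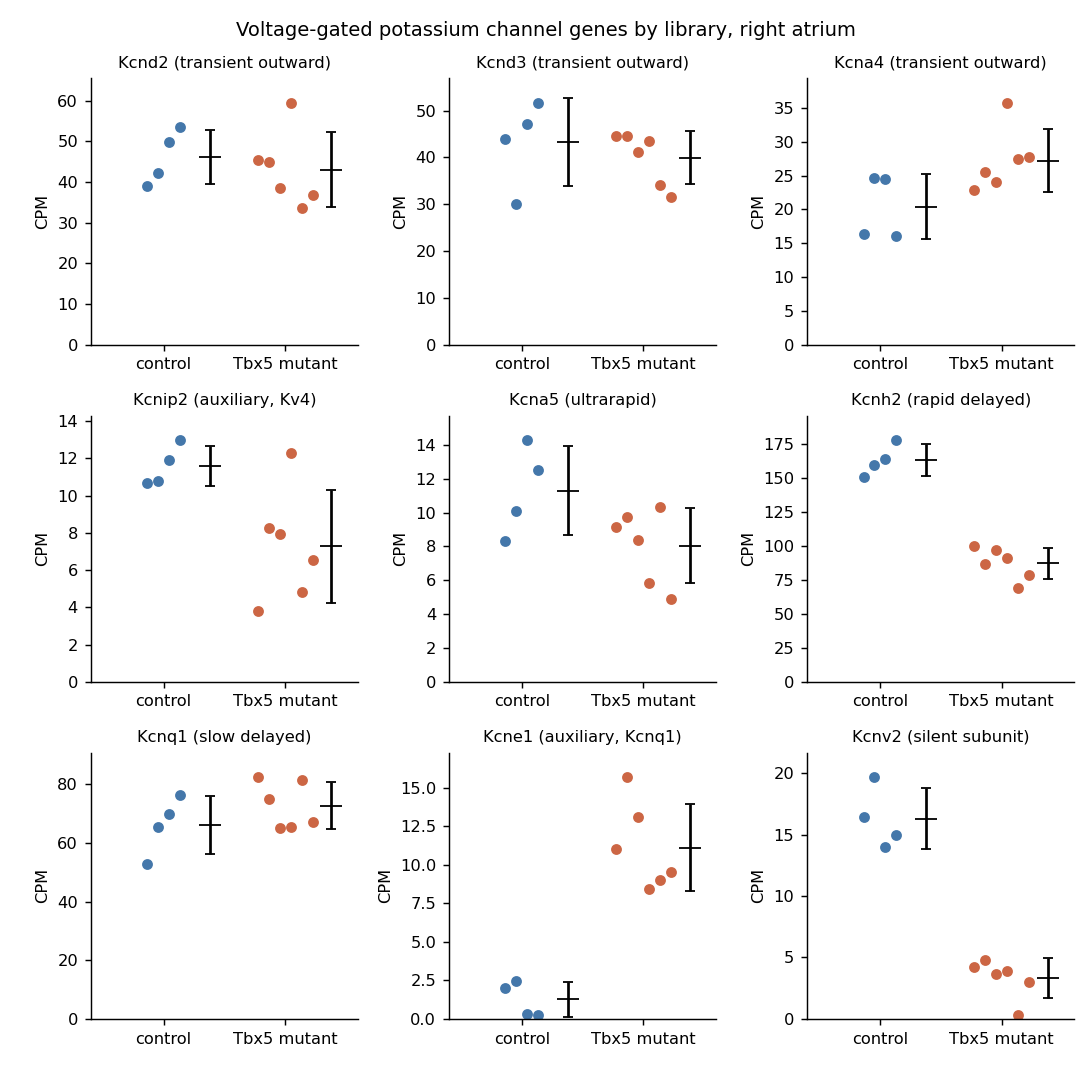
Points are the CPM of each library for the 9 genes, with 4 control libraries in blue, 6 labelled Tbx5 mutant in orange, and the mean ± SD beside each group in black, on axes that start at 0. Kcnh2 (163 against 87 CPM), Kcnv2 (16.3 against 3.32 CPM) and Kcne1 (1.27 against 11.1 CPM) separate the groups, and in the other 6 panels the groups overlap.

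The transient outward current gives the early fast repolarization, and in mouse heart Kcnd2 and Kcnd3 form its fast component. Kcnd2 was read at 39.1, 42.2, 49.7 and 53.5 CPM in controls M1, M2, F1 and F2, and from 33.5 to 59.5 with a median of 41.6 CPM in the mutant libraries. Kcnd3 was at 44, 30.1, 47.2 and 51.7 CPM in the same controls and from 31.6 to 44.6 with a median of 42.3 CPM in the mutants. The ranges overlapped for both genes. The log2 fold change was -0.10 (SE 0.15, edgeR adjusted p = 0.64) for Kcnd2 and -0.11 (SE 0.15, adjusted p = 0.586) for Kcnd3. Their ratio within a library, which does not depend on how libraries are scaled, was 0.89 to 1.4 in controls and 0.936 to 1.37 in mutants, a log2 difference of -0.02 (two-sided exact permutation p = 0.914). Both directions turned positive in some fits, Kcnd2 to 0.09 in the libraries labelled male alone and Kcnd3 to 0.07 with the trend on transcript length removed.

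Kcna4, the pore-forming subunit of the slow transient outward component, was at 16.4, 24.7, 24.5 and 16.1 CPM in controls M1, M2, F1 and F2. In the mutant libraries it ran from 22.9 to 35.8 with a median of 26.4 CPM. Of the 6 mutant libraries 4 lay above every control, and the other two fell within the control range. The log2 fold change of 0.42 (SE 0.16) missed the threshold, with an edgeR adjusted p of 0.0602 and a two-sided exact permutation p of 0.0476 for the single gene. Relative to Kcnd2 plus Kcnd3 in the same library, Kcna4 differed by 0.54 on the log2 scale (exact permutation p = 0.0571, adjusted over 7 ratios 0.08), and missed the threshold. Without control M2 it was 0.73 (adjusted p = 0.0208) and without control F2 0.35 (adjusted p = 0.217), and with any other one library left out it missed the threshold.

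Kcnip2, a calcium-binding auxiliary subunit that the Kcnd2 and Kcnd3 channels need for a full current, was read at 10.7, 10.8, 11.9 and 13 CPM in controls M1, M2, F1 and F2. The mutant libraries ran from 3.79 to 12.3 CPM with a median of 7.24, and 5 of 6 lay below every control, the exception being mutant M1 at 12.3. The log2 fold change was -0.67 (SE 0.24) and its edgeR adjusted p of 0.0508 lay just outside the threshold. DESeq2 and limma placed it inside, at adjusted p of 0.0386 and 0.0388, and without mutant M1 it was -0.89 (adjusted p = 0.00544). Across all alternatives its adjusted p ran from 0.000223 to 0.438.

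Set against its partners, Kcnip2 separated the groups. Reads of Kcnip2 per read of Kcnd2 plus Kcnd3 were 0.13, 0.15, 0.124 and 0.124 in controls M1, M2, F1 and F2 and 0.0429 to 0.121 in the mutants, with a median of 0.0953. The ranges did not overlap, though the highest mutant library came near the lowest control. The log2 difference was -0.65 (two-sided exact permutation p = 0.019, adjusted over 7 ratios 0.0333). It missed the threshold when 5 reads in place of 0.5 were added to each sum (-0.58, exact permutation p = 0.0583 after adjustment) and without any one of the 4 controls, at adjusted p of 0.0833 to 0.117.

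Kcna5 carries the ultrarapid delayed rectifier current, which in humans is a current of the atrium. It was read at 8.29, 10.1, 14.3 and 12.5 CPM in controls M1, M2, F1 and F2 and from 4.9 to 10.3 CPM with a median of 8.76 in the mutants. The lowest mutant libraries, M1 and M3, lay below every control, and the others fell within the control range. The log2 fold change of -0.45 (SE 0.21) was not called, with an edgeR adjusted p of 0.109. Of its 50-base stretches, 2.81% also occur in transcripts annotated to Kcna6 or to Gm26673, so a small part of its reads could be assigned to either.

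Kcnh2 encodes the ERG channel of the rapid delayed rectifier current, the target of many drugs that lengthen the QT interval. It fell in the mice labelled Tbx5 mutant. Controls M1, M2, F1 and F2 were at 150.3, 159.8, 164 and 178 CPM, with 966 to 1316 reads each. The mutant libraries were at 99.5, 86.9 and 97 CPM (F1 to F3) and 90.9, 69 and 78.7 CPM (M1 to M3). Every mutant library lay far below the lowest control, with a spread close to that of the controls. This is a log2 fold change of -0.91 (SE 0.10), a level 1.87-fold lower, with an edgeR adjusted p of 3.36e-05 and a two-sided exact permutation p of 0.00476, the smallest that the 210 assignments allow. By size it was the gene with rank 464 among falling log2 fold changes of 13084 genes. It was called lower in each of the alternatives that used the threshold fold of 1.5, and it dropped out only where a fold over 2 was asked.

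Kcnh2 has a long and a short transcript with separate starts in this annotation. Kcnh2-201 holds 4221 bases and Kcnh2-202 holds 3193, and 65.6% of the bases of the long form are shared with the short one, so gene counts do not separate them. RefSeq's promoter window for the gene, on GRCm38.p6, belongs to the start of the short form. Its 250 bases upstream, chr5:24329592-24329841 on the reverse strand, are shown because Kcnh2 was the only called member with a window to print, with the letters GGGCGG in capitals.
Kcnh2: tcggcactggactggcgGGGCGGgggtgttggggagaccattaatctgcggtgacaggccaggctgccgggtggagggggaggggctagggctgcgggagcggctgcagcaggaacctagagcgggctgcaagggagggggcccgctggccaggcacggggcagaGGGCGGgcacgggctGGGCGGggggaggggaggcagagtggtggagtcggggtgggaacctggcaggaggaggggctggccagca
The stretch is 73.6% G or C and holds GGGCGG 3 times, starting 233, 85 and 70 bases before the transcript start. Read on either strand, GGGCGG was found in the windows of 4 of the 6 members matched (Kcna4, Kcnh2, Kcnd2 and Kcnip2) and in 32.7% of 32851 promoter windows. The T-box core AGGTGT lay in none of the 6 and in 11.8% of all windows, its longer form AGGTGTGA, which holds the core, in none of the 6 and in 1.12%, and the overlapping letters GGTGTG in Kcna4 and Kcnd3 and in 16.3%. These are matches of letters in short windows and say nothing of binding there or elsewhere. Kcnq1, Kcne1 and Kcnv2 were not matched.

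Kcnq1, the pore of the slow delayed rectifier current, was read at 52.7, 65.4, 69.9 and 76.5 CPM in controls M1, M2, F1 and F2. The mutant libraries ran from 65.2 to 82.5 with a median of 71 CPM. The ranges overlapped widely, and the log2 fold change was 0.14 (SE 0.11, edgeR adjusted p = 0.37). The antisense RNA Kcnq1ot1, which silences neighbouring genes on the paternal chromosome, was at 402 ± 47.5 CPM (n = 4) and 296 ± 54 CPM (n = 6), with no overlap. Its log2 fold change of -0.44 (SE 0.14, edgeR adjusted p = 0.0256) did not reach a fold of 1.5. Kcnq1 shares 2.96% of its exon bases with Kcnq1ot1 on the opposite strand, and whether counting used strand is not given in the sources used here.

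Kcne1, the single-span subunit that joins Kcnq1 to give the slow current its slow opening, rose in the mice labelled Tbx5 mutant. Controls M1 and M2 were at 2.00 and 2.48 CPM with 14 and 15 reads, and controls F1 and F2 at 0.314 and 0.271 CPM with 2 reads each. The mutant libraries were at 11, 15.7 and 13.1 CPM (F1 to F3) and 8.4, 9.03 and 9.53 CPM (M1 to M3), with 35 to 118 reads. The lowest mutant library was above the highest control by several times, and the controls themselves fell into a higher and a lower pair. The log2 fold change was 3.16 (SE 0.41), or 8.95-fold, with an edgeR adjusted p of 8.17e-05 and a two-sided exact permutation p of 0.00476. It had rank 42 among rising log2 fold changes of 13084 genes, a place that the low control counts leave imprecise. The change rests on 33 control reads in all, and Kcne1 passed the expression filter by its mutant libraries, where it is high. A filter on a mean count of at least 50 left it untested.

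The size of the Kcne1 difference depended on which controls stood against which mutants. In libraries labelled male it was 2.00 on the log2 scale (edgeR adjusted p = 0.00551), and in libraries labelled female 5.44 (adjusted p = 1.39e-05). The controls labelled female had 2 reads each, below the 3 counts taken as the floor. The sizes of the 5.44 and of the interaction that follows are therefore imprecise. The interaction of genotype and labelled sex was -3.43 (male minus female, SE 0.52, edgeR adjusted p = 0.0175), and Kcne1 was the 1 member among 38 genes with such an interaction. With the control labels exchanged, as Xist and Ddx3y have them, the same term was 2.28 (SE 0.54) with an adjusted p of 0.244. In that arrangement Kcne1 was higher in libraries with Xist in both groups, and the sex term taken over all 10 libraries was -0.86 (Ddx3y minus Xist libraries, SE 0.26, edgeR adjusted p = 0.285).

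Within libraries, the balance of the delayed rectifier genes differed between groups. Reads of Kcne1 per read of Kcnq1 were 0.0392 in controls M1 and M2, 0.0056 and 0.00442 in controls F1 and F2, and 0.112 to 0.21 in the mutants. The log2 difference was 3.44 (two-sided exact permutation p = 0.00476, adjusted over 7 ratios 0.0111). Reads of Kcnh2 per read of Kcnq1 were 2.33 to 2.85 in controls and 0.848 to 1.49 in mutants, a log2 difference of -1.06 (exact permutation p = 0.00476, adjusted 0.0111). Neither pair of ranges overlapped.

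Kcnv2 forms no channel of its own and joins pore-forming subunits of other genes, whose current it modifies. It fell in the mice labelled Tbx5 mutant. Controls M1, M2, F1 and F2 were at 16.4, 19.7, 14 and 15 CPM, with 89 to 119 reads. The mutant libraries were at 4.26, 4.8 and 3.62 CPM (F1 to F3) and 3.94, 0.291 and 3 CPM (M1 to M3). Mutant M2 had 2 reads and stood apart from the other 5, all of which were still well below the lowest control. In log2 terms the fold change was -2.28 (SE 0.32), a level 4.85-fold lower, with an edgeR adjusted p of 0.000175 and a two-sided exact permutation p of 0.00476. It had rank 61 among falling log2 fold changes, and without mutant M2 it was -2.01 (adjusted p = 2.58e-06).

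**Figure D2:**
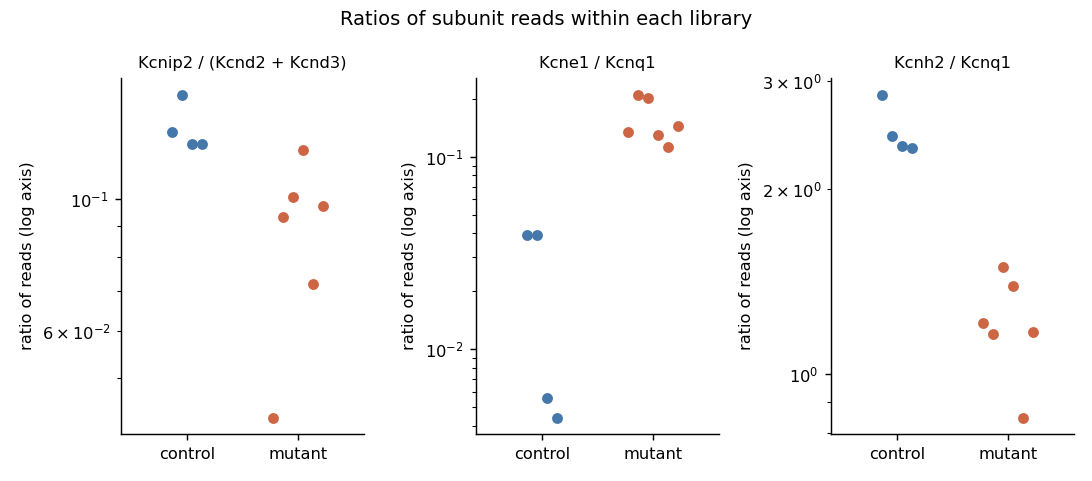
Points are the ratio of reads of a subunit to its partner in each library, on log axes that differ between panels, with 4 control libraries in blue and 6 labelled Tbx5 mutant in orange. In all 3 panels no mutant library falls within the control range, and for Kcnip2 the gap is small (0.121 against 0.124).

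Counted per kilobase of the longest annotated transcript, so that genes can be set beside each other, the order of the levels differed between groups at both ends. In controls Kcnh2 was the most abundant at 38.7 ± 2.74 CPM per kb (n = 4), followed by Kcnq1 at 21.8 ± 3.31 and Kcnd2 at 8.95 ± 1.28, and each of these lay clear of the next. Kcnd3 (6.03), Kcna4 (4.26), Kcna5 (3.94), Kcnip2 (3.72) and Kcnv2 (3.19) followed, each overlapping its neighbour in range. Kcne1 was last at 0.399 ± 0.36 CPM per kb, below every library of Kcnv2. In the mutants Kcnq1 (24 ± 2.64 CPM per kb, n = 6) and Kcnh2 (20.6 ± 2.73) came first with overlapping ranges. Kcne1 stood sixth at 3.51 ± 0.885 CPM per kb, its range overlapping both neighbours, and Kcnv2 was last at 0.65 ± 0.314, below every library of Kcnip2. With the mean transcript length in place of the longest, the first and second places and the last were the same and the middle order changed. The longest transcript of Kcnip2 is annotated as a retained intron, which limits its level per kilobase. Kcnh2 was divided by its long form of 4221 bases, though its counts include reads of the short form of 3193 bases. Its place beside Kcnq1 in the mutants therefore depends on the length taken. Before division by length, reads of Kcnh2 per read of Kcnq1 had a median of 1.19 in the mutants.

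Over the 6 members that form channels by themselves, the level summed per kilobase was 83.7 ± 8.69 CPM per kb in controls (73.1 to 92.7) and 67 ± 4.98 in mutants (59.8 to 73.8). The ranges of the sum overlapped slightly. Kcnh2 made up 44.1% to 48.7% of it in controls and 25.6% to 35% in mutants. Kcnq1 made up 23.8% to 27.2% and 30.7% to 42.1%. With the long form's length taken for Kcnh2, the largest share passed from Kcnh2 to Kcnq1 in the group means (46.3% and 26% in controls, 30.7% and 35.9% in mutants). Kcna4 had 3.62% to 6.39% and 6.47% to 10.6%, and the shares of Kcnd2, Kcnd3 and Kcna5 overlapped between groups.

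**Figure D3:**
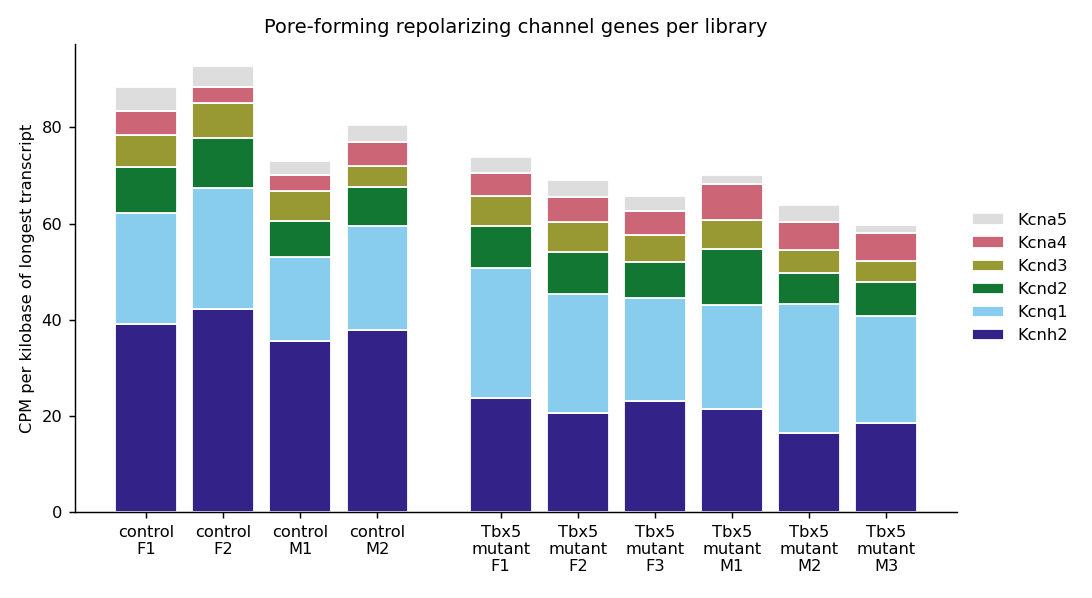
Bars stack the CPM per kilobase of longest transcript of the 6 pore-forming members in each library, from 0, with controls on the left and mice labelled Tbx5 mutant on the right. The Kcnh2 segment is shorter in each mutant library (16.4 to 23.6) than in each control (35.6 to 42.2), while the Kcnq1 segment overlaps between groups.

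Of 53 other genes of the voltage-gated potassium channels and their handling, 22 were tested. Of the 22, 6 were called lower, beside 7.16% of all genes tested, and 3 higher, beside 8.50%. Their median log2 fold change was -0.46, against -0.005 over all genes tested. Among 23 other pore-forming genes 6 were tested. Kcna1, a fast-opening delayed rectifier best known from neurons, fell from 30.1 ± 4.24 CPM (n = 4) to 5.16 ± 2.06 CPM (n = 6), a log2 fold change of -2.50 (SE 0.23, edgeR adjusted p = 4.7e-06) with no overlap. Its relatives Kcna2 (log2 fold change -0.68) and Kcna7 (-0.70) also fell, and none of the 6 rose. Of 9 other silent subunits only Kcng2 was tested, at 76.6 ± 14.7 and 55.6 ± 6.32 CPM, and it was not called (-0.46, edgeR adjusted p = 0.012, under a fold of 1.5).

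Among 12 other auxiliary genes 6 were tested. Kcne4, a relative of Kcne1 that inhibits Kcnq1 channels, rose from 2.73 ± 0.786 to 5.99 ± 1.9 CPM (log2 fold change 1.14, edgeR adjusted p = 0.00723), with overlapping ranges. Kcne1l rose by 1.46 (edgeR adjusted p = 0.0424) on 16 control and 62 mutant reads. It had 3 to 6 reads in each control and passed the expression filter by its mutant libraries, which limits its call. Its ranges overlapped, with a two-sided exact permutation p of 0.0619. Kcnip4, a relative of Kcnip2, fell by 0.77 on the log2 scale (edgeR adjusted p = 0.043), also with overlapping ranges. All 9 genes of trafficking and anchoring were tested, of which Actn2 is also a cardiomyocyte marker. Nedd4l, a ubiquitin ligase that removes Kcnq1 and other channels from the membrane, fell from 73.6 ± 10.7 to 43.1 ± 4.27 CPM (log2 fold change -0.77, edgeR adjusted p = 0.000144). Cav3, the caveolin of muscle, rose from 36 ± 4.93 to 75.2 ± 11.7 CPM (1.06, edgeR adjusted p = 5.54e-05). Kcnrg, a regulator of channel assembly, fell (-1.07, edgeR adjusted p = 0.00777), with overlapping ranges. Kcns1, Kcnv1, Kcnip1 and Dpp10 had no read in any library.

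**Figure D4:**
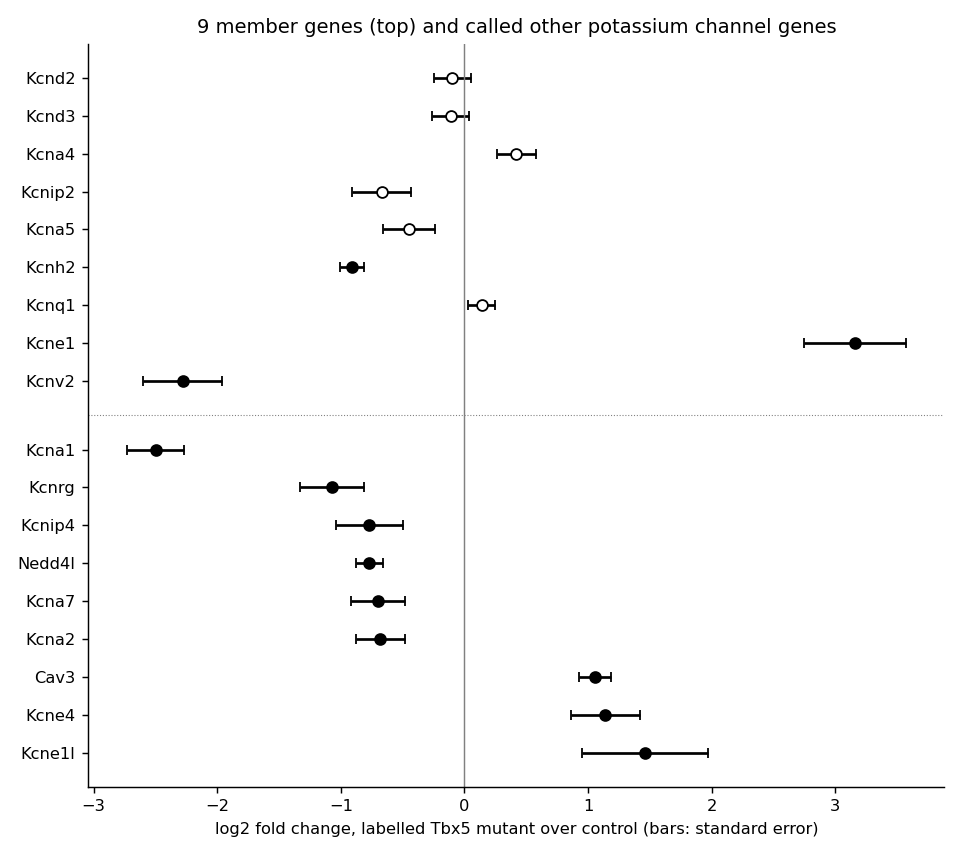
Points are edgeR log2 fold changes, labelled Tbx5 mutant over control, with bars of 1 standard error, for the 9 members above the dotted line and the 9 called other genes below it. Filled points passed the call thresholds, and among the members these are Kcnh2 (-0.91), Kcne1 (3.16) and Kcnv2 (-2.28).

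The cell type markers moved as follows beside these results, where 7.16% of all genes tested were called lower and 8.50% higher. The atrial muscle markers had 4 of 5 called lower (Myl7, Nppa, Sln and Bmp10), with summed levels of 41423 to 46938 CPM in controls and 17732 to 33551 in mutants. Of 4 ventricular markers 2 were called higher (Myl2 and Myl3), with summed levels of 41.1 to 62.8 and 609 to 848 CPM. Of 10 cardiomyocyte markers 5 were called higher, each without overlap (Tnnt2, Actc1, Mybpc3, Tnnc1 and Pln). The sum of all 10 was 104308 to 159488 and 82248 to 150185 CPM and overlapped. Ttn, the largest part of that sum, was at 63169 to 106625 and 27143 to 90195 CPM and was not called (log2 fold change -0.67). Of 5 sinoatrial node markers 2 were called lower (Hcn4 and Tbx3), with sums of 31.4 to 50.8 and 24.8 to 33.3 CPM.

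Among markers of other cells, 4 of 5 leukocyte markers were called higher (198 to 275 and 318 to 457 CPM in sum), as were 2 of 5 fibroblast markers (2635 to 3266 and 3209 to 4416) and 2 of 5 of smooth muscle and pericytes (242 to 304 and 323 to 729.6). None of 5 endothelial (895 to 1195 and 1030.1 to 1256), 6 neuron and Schwann cell (7 to 10.7 and 4.08 to 9.76), 4 epicardial (288 to 303 and 179 to 343) or 4 adipocyte markers (0.627 to 15.2 and 0.817 to 68.6) was called. The part of these shifts in the channel results was not tested. With libraries scaled to the cardiomyocyte markers, the median of all genes moved to -0.606 and 95.4% of calls were lower, against 45.7% in the fit reported. The members called lower were then 6, with Kcna5, Kcnd2, Kcnd3 and Kcnip2 added, and Kcna4 (-0.19) and Kcnq1 (-0.45) changed sign. Relative to that median Kcnh2 was at -0.90, Kcnv2 at -2.29, Kcne1 at 3.15, Kcna4 at 0.42 and Kcnd2 at -0.09. Such scaling moves all genes by nearly the same amount. Closeness of these values to the fit reported was therefore fixed in advance and is no check on cell content. Of the 10 markers used for scaling, 5 were themselves called higher.

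As a description over the same 10 libraries, which share the group difference, the genes with the highest Pearson correlation of log2 CPM with each member were listed. For Kcnh2 they were Dsc2, Fam49a and Homer1 (r = 0.987, 0.987 and 0.986), for Kcne1 Trim47, Itih5 and Lpl (0.984, 0.981 and 0.978), and for Kcnv2 Rsbn1, Nhsl1 and Tbc1d4 (0.981, 0.977 and 0.977). For the members without a call the leading genes were Capn6 for Kcna4 (0.948), 0610007L01Rik for Kcna5 (0.925), Kpna3 for Kcnd2 (0.904), Neurl4 for Kcnd3 (0.955), Ttc17 for Kcnip2 (0.909) and Vars for Kcnq1 (0.938). With group means subtracted, the closest pairs among the members were Kcna5 with Kcnq1 (r = 0.75), Kcnh2 with Kcnv2 (0.74), Kcnd2 with Kcnh2 (0.64) and Kcnd2 with Kcnd3 (0.62), each over 10 libraries. Mutant M2 had 2 reads of Kcnv2, below the floor, and also the lowest Kcnh2 (69 CPM). The value of Kcnh2 with Kcnv2 was not computed without that library.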

How the data were processed

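RNA was taken from right atria of 10 mice, and single-end reads were sequenced. The labels name both an mRNA kit and ribosomal RNA removal, so the library type is not settled. The submitters' processing notes name FastQC, TopHat2 2.0.11, featureCounts, DESeq2 and build mm10, and the annotation is not given in the sources used here. The authors deposited whole-number counts per gene and library, and a signal, each count divided by 1 factor per library, with its mean. The table also holds the authors' own comparison, not used here: deposited log2 fold changes, their errors and test score, p-values and fold ratios.

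Counts were compared in edgeR 4.0.16 (R 4.3.3) with its expression filter, TMM scaling and the quasi-likelihood test over 13084 genes, without covariates and with a prior count of 0.125, Benjamini-Hochberg adjusted over all genes tested. Dividing a log2 fold change by the root of its F statistic gave its standard error. Single values and 7 within-library ratios of reads (0.5 added to each sum) were tested by exact permutation, two-sided, with all 210 assignments of 4 libraries against 6, whose smallest p is 0.00476. CPM and ratios carry the SD or range over mice. Library totals of 5703775 to 7095141 counts set the precision of low genes, except in mutant M3, where 3484550 counts were left without Rn45s. As the floor, 3 counts were taken. The fits were tested on simulated data.

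Transcript length, position and coding sequence came from GENCODE M21, and promoter windows from RefSeq on GRCm38.p6. Groups follow the labels. No pair of libraries in a group agreed within sampling noise (the lowest chi-square per degree of freedom was 3.94). The labels do not say whether mice shared litters, and p-values measure the spread between these mice. Alternatives were DESeq2 1.42.0, limma 3.58.1, other scalings, filters, thresholds and covariates, and libraries left out. Named were the 9 members, Tbx5, Kcnq1ot1, the called genes among the other channel genes, the library checks and the 3 genes most correlated with a member. Some listed genes, 1 of the 7 ratios and 1 sequence are not reported here. The rule for the members uses names and no measured value, but the members and all lists were chosen with earlier results of these data known.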

Additional observations from a re-analysis of the deposited data

Results flagged for a closer look

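Among 34 groups of values tested for a library far from the others, 1 had one, where chance flags about 1 in 20 groups (1.7 of 34). The ribosomal precursor Rn45s took 38.9% of the counts in mutant M3, where the nearest mutant library had 0.582%. Without Rn45s 3484550 counts were left in mutant M3, and leaving that library out gave the same 3 called members.

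The difference of Kcne1 between groups differed by labelled sex, by a term of -3.43 on the log2 scale in the interaction test (male minus female). Its size is imprecise, since the controls labelled female had 2 reads of Kcne1 each. The control libraries carry sex labels that go against their Xist and Ddx3y reads, and with these labels exchanged the term had the opposite sign (2.28) and an edgeR adjusted p of 0.244.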

How the results depend on the processing

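Kcnh2 (log2 fold change -1.51 to -0.80), Kcne1 (2.00 to 5.44) and Kcnv2 (-2.98 to -1.77) kept their direction and an adjusted p under 0.05 in all alternatives in which they were tested. The count of members lower was 6 with cardiomyocyte marker scaling, 1 with a fold over 2 and 2 to 3 with one library left out; the count higher was 0 with a mean count of at least 50, where Kcne1 was not tested, and 1 with any library left out. Kcnip2 was added to the members lower under DESeq2, limma with a trend, no filter, removal of the length or GC trend, the libraries labelled female alone and without mutant M1. Kcna4 had an adjusted p under 0.05 in 6 alternatives, at log2 fold changes of 0.45 to 0.52. These are under a fold of 1.5, and it was called in no alternative.

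Values that reversed were Kcnd2 (0.09 in libraries labelled male, 0.07 with the replicate block and the length trend removed, 0.03 without mutants M2 and M3), Kcnd3 (0.07 with the length trend removed, 0.14 with the block added, 0.01 without mutants M2 and M3), and Kcna4 (-0.19) and Kcnq1 (-0.45) with cardiomyocyte marker scaling. The Kcnip2 ratio was -0.58 with 5 reads added and -0.76 to -0.46 with one library left out. The range was -0.11 to 0.11 for Kcnd2 to Kcnd3 and 0.35 to 0.73 for Kcna4 to Kcnd2 plus Kcnd3. The count of members with an interaction was 0 with the control sex labels exchanged and 1 without any one mutant. The cause was not tested in these cases, other than for Kcne1 and the filter.

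The replicate block gave 2 members lower and 1 higher, with Kcnh2 at -0.92, Kcne1 at 3.14 and Kcnv2 at -2.33, and changed no member's call. The labels share replicate numbers between groups and do not say whether these pair the mice. Over genes, deviations from group means of same-numbered libraries correlated at -0.047 to 0.0358 (4 pairs) and of other pairs at -0.286 to 0.276 (20 pairs). These correlations showed no likeness of same-numbered libraries, but they do not settle whether mice were paired. Leaving out mutants M2 and M3 together and the exchanged sex labels as a covariate were chosen after seeing the data. Low counts limit Kcne1 in controls (33 reads) and Kcnv2 in mutants (125 reads).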
